A study of Danio rerio with 24 samples.

Results

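The genes described here were 8 members of the pathway that decides which neural progenitors become neurons in zebrafish larvae: the basic helix-loop-helix (bHLH) transcription factors *neurog1*, *atoh7*, *neurod1* and *neurod4*, the Delta ligands *dla*, *dlb* and *dld*, and the Notch receptor *notch1a*. They were taken by gene symbol, and 8 rows of the 26878 genes counted carried one of these names, 1 row for each gene. RNA was sequenced from whole larvae at 3 and 5 days post fertilization (dpf). The *elavl3:Gal4; UAS:fynY531F* larvae (labelled with huc:gal4:gcry:RFP and, as the second transgene, UAS:fynY531F:gcry:GFP, here fyn larvae) carried a pan-neuronal Gal4 driver and a UAS transgene for a constitutively active form of the Src family kinase Fyn. The *elavl3:Gal4* larvae (labelled huC:gal4:gcry:RFP, here Gal4 larvae) carried the driver alone, and the wild-type (WT) larvae carried neither. Each of the 6 groups had 4 libraries, each from a pool of 10 larvae, so 24 libraries entered the comparisons. The driver uses the promoter of *elavl3* (also called huC), an RNA-binding protein gene of postmitotic neurons, so the transgene is directed to neurons while the RNA came from every tissue of the larva. The fyn larvae of these experiments came from 1 UAS line, and the fyn and Gal4 larvae share the driver, which the WT larvae lack.

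Proneural bHLH factors start neuronal differentiation in a progenitor and switch on the genes of Delta ligands. Delta on the surface of that cell activates Notch receptors on its neighbours, whose her genes then repress proneural genes, a process known as lateral inhibition that keeps part of the pool as progenitors. The factors encoded by *neurod1* and *neurod4* act later, when cells leave the cycle and differentiate, and the Atoh7 protein is best known from the retina.

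Library totals lay between 11386498 and 30549128 counted reads, and between 22443 and 24513 genes had a count in each library. Levels are given as CPM, the reads of a gene scaled to a common library size, after trimmed mean of M-values (TMM) scaling. Comparisons between groups are log2 fold changes with their standard error (SE) from the quasi-likelihood test of edgeR, adjusted over all genes by the Benjamini-Hochberg method, and genes with an adjusted p below 0.05 are described as called. The targeted gene *fyna*, whose counts include the transgene because this is a zebrafish *fyna* cDNA, averaged 208 ± 54.9 CPM in fyn larvae at 5 dpf, against 88.9 CPM in Gal4 and 86.1 CPM in WT larvae, and 897 ± 76.9 CPM in fyn larvae at 3 dpf, against 74.4 CPM in Gal4 and 87.3 CPM in WT larvae (SD, n = 4 each). A single library stood apart. Replicate 3 of the Gal4 larvae at 5 dpf correlated with its own group at a median r of 0.8688 across genes, while every other library reached at least 0.9824, and its TMM factor was 0.6117 against 0.9414 to 1.089 in the other libraries. Its *elavl3* level was 76.3 CPM, whereas the other 3 libraries of its group held 412 to 520 CPM. A list of 13 neuron markers that includes *elavl3* went the other way on this scale. It summed to 5551 CPM in replicate 3, against 4210 to 4894 CPM in the others. Comparisons with the Gal4 larvae at 5 dpf are therefore given with and without this library.

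All 8 members were detected in all 24 libraries and passed the filter on low counts in every comparison. Per kilobase of gene length, *neurod1* was the highest of the 8 in all 6 groups, with group means between 60.1 and 96.3 CPM per kb, and its libraries did not overlap those of the next gene in any group. The Delta ligand *dlb* was in the second place everywhere, at 13.6 to 17.5 CPM per kb, and overlapped the next gene in fyn larvae at 5 dpf alone. The genes *neurod4*, *dla*, *notch1a* and *dld* followed with group means between 6.39 and 12.3 CPM per kb, and most neighbours in that part of the order overlapped in their libraries. The early factors *neurog1* and *atoh7* took the last places in every group, and they overlapped each other in 4 of the 6 groups but not in WT larvae at 3 dpf or in fyn larvae at 5 dpf.

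**Figure D1:**
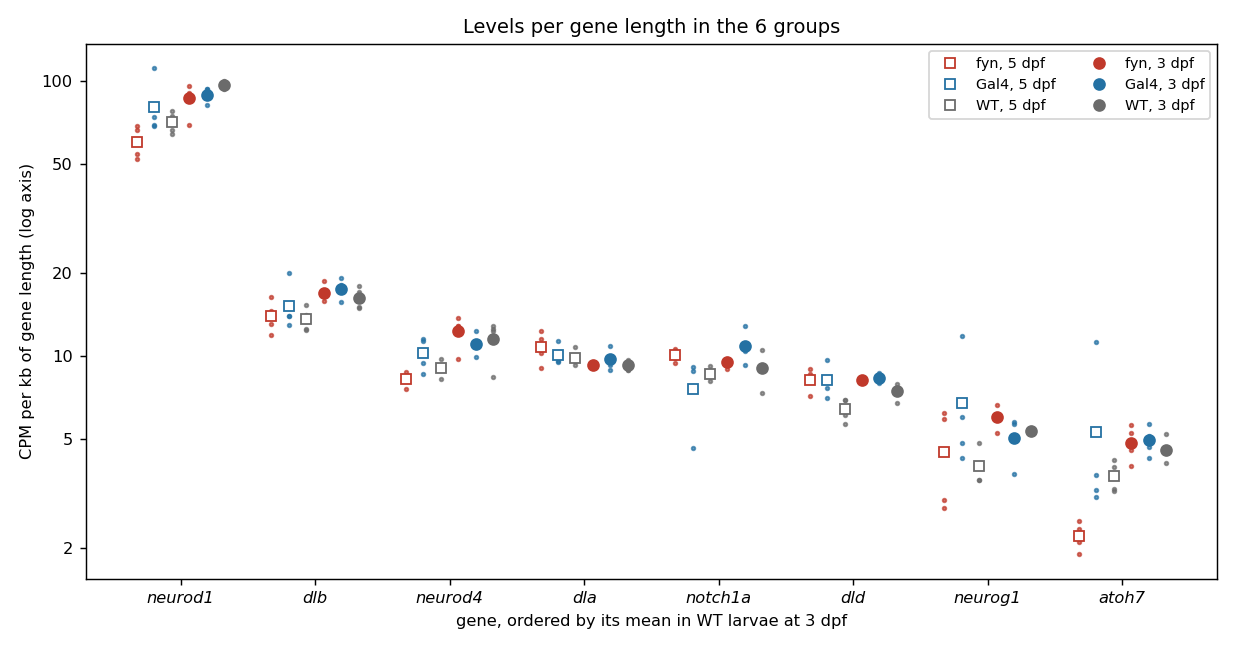
Level of the 8 genes per kilobase of gene length (CPM per kb, log axis) in the 6 groups; large symbols are group means, open squares for 5 dpf and filled circles for 3 dpf, and small points are the 4 libraries of each group. *neurod1* lies between 60.1 and 96.3 CPM per kb in every group, and *atoh7* is the lowest gene in each, down to 2.22 CPM per kb in fyn larvae at 5 dpf.

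Over the 6 group means, the members differed in their span. The highest group mean was 2.39 times the lowest for *atoh7*, and the ratio lay between 1.17 for *dla* and 1.70 for *neurog1* in the other 7 genes. With all libraries the Delta ligands spanned the least, at 1.17, 1.29 and 1.299 for *dla*, *dlb* and *dld*. For *neurog1* and *atoh7* the highest group mean was that of the Gal4 larvae at 5 dpf, the group with the library that stood apart. The other 3 libraries of that group averaged 7.01 CPM for *neurog1* and 3.49 CPM for *atoh7*. For *notch1a* that group had the lowest mean, at 63.5 CPM, and the other 3 libraries averaged 71.7 CPM. The ratio of 1.44 for *notch1a*, and its place after the Delta ligands, therefore depend on that library.

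**Figure D2:**
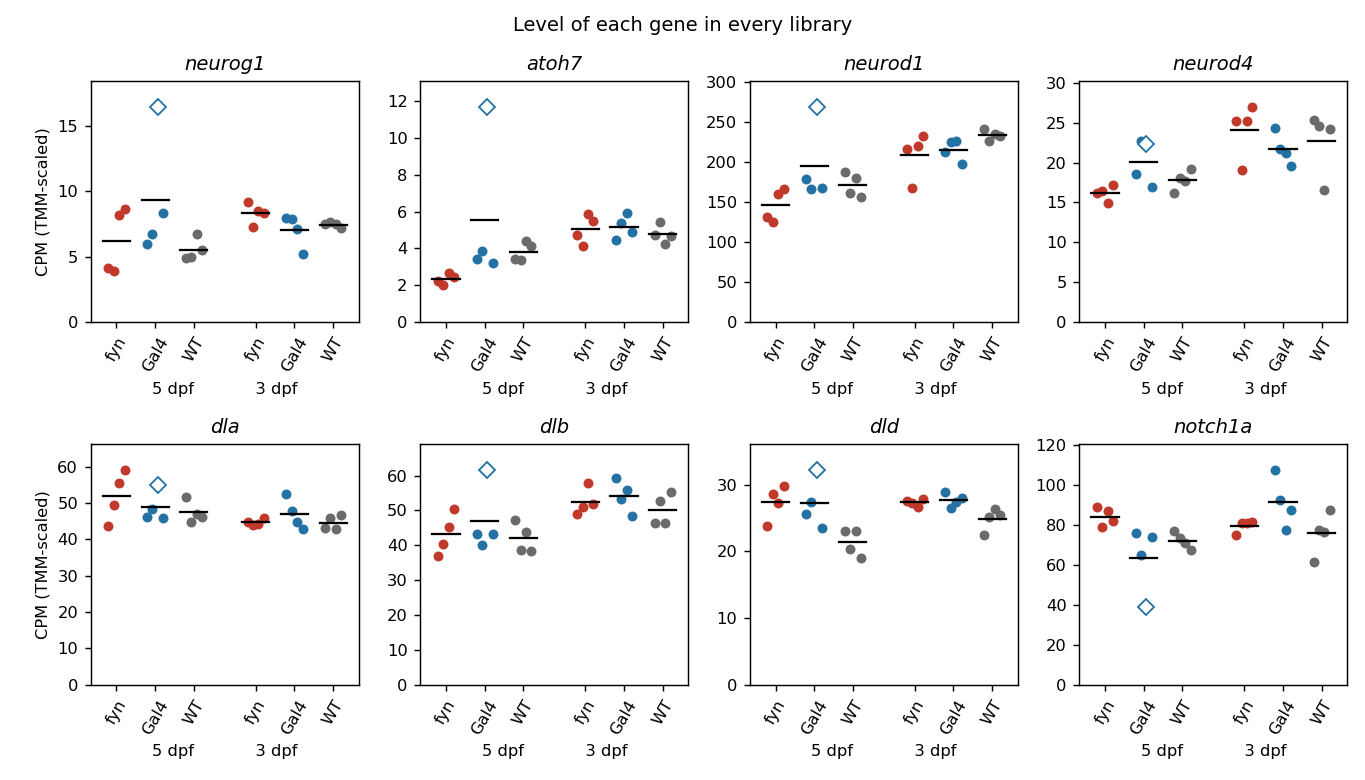
TMM-scaled CPM of each of the 8 genes in all 24 libraries, with fyn, Gal4 and WT larvae at 5 dpf on the left and at 3 dpf on the right; dots are libraries, bars are group means and the open diamond is replicate 3 of the Gal4 larvae at 5 dpf. The 4 fyn libraries of *atoh7* at 5 dpf lie between 1.98 and 2.63 CPM, below every Gal4 and WT library of that age, and those of *notch1a* lie between 79.0 and 89.1 CPM, above every Gal4 and WT library of that age.

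Of the genotype differences at 5 dpf, the largest on the log2 scale among the members was in *atoh7* (ENSDARG00000069552, chromosome 13, 25449681 to 25450725, plus strand), the factor needed for retinal ganglion cells in zebrafish. It held 2.21, 1.98, 2.63 and 2.45 CPM in fyn larvae, from 26 to 38 reads a library. Gal4 larvae held 3.41, 3.85, 11.7 and 3.21 CPM, and WT larvae held 3.42, 3.38, 4.38 and 4.11 CPM. All 4 fyn libraries lay below all 8 control libraries, and the Gal4 library at 11.7 CPM was replicate 3. In bulk RNA of whole larvae, fewer cells of a type and less RNA in each cell cannot be told apart. Against WT larvae *atoh7* fell by 0.72 (SE 0.18; adjusted p = 0.0123 with edgeR), a call kept with any 1 library left out and lost in the fit of all 6 groups (adjusted p = 0.113). Against Gal4 larvae the difference was -1.23 (SE 0.45; adjusted p = 0.167 with edgeR) with all libraries. Without replicate 3 it fell by 0.60 (SE 0.19; adjusted p = 0.0484). The fit of all 6 groups, which kept replicate 3, also called *atoh7* against Gal4 larvae (adjusted p = 0.00572).

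At 3 dpf *atoh7* averaged 5.06 ± 0.758 CPM in fyn, 5.15 ± 0.629 CPM in Gal4 and 4.77 ± 0.483 CPM in WT larvae (SD, n = 4 each), with overlapping libraries, and differed by 0.00 (SE 0.15) from Gal4 and by 0.10 (SE 0.15) from WT larvae (adjusted p = 0.988 and 0.667 with edgeR). Between 3 and 5 dpf it fell in fyn larvae by 1.13 (SE 0.18; adjusted p = 0.000364 with edgeR), with every 5 dpf library below every 3 dpf library. The change in WT larvae was -0.31 (SE 0.16; adjusted p = 0.102 with edgeR), and with scaling by library totals alone, which moved the median of all genes by -0.15 there, it was called at -0.46 (adjusted p = 0.0207). The change with age differed between fyn and WT larvae by -0.83 (SE 0.22; adjusted p = 0.0197 with edgeR), and this call was lost without replicate 3 of the fyn larvae at 3 dpf (adjusted p = 0.0514) and in the fit of all 6 groups (adjusted p = 0.39). In Gal4 larvae the change with age was 0.09 (SE 0.43; adjusted p = 0.902 with edgeR), and without replicate 3 it was a fall by 0.54 (SE 0.17; adjusted p = 0.0161). The changes with age in fyn and Gal4 larvae differed by -1.22 (SE 0.49; adjusted p = 0.196) with all libraries and by -0.59 (SE 0.23; adjusted p = 0.0929) without that library.

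Marker genes of the retina moved in the same comparison. Of 8 photoreceptor markers, 7 fell in fyn against WT larvae at 5 dpf and none rose, where 28.8% of all genes were called, with *rho*, the rod opsin, at -1.25 and *gnat1*, the rod transducin, at -1.58, and the summed level of the 8 genes was 1037 to 1738 CPM in fyn and 2682 to 3171 CPM in WT larvae. Against Gal4 larvae of that age 2 of the 8 fell (4.6% of all genes called), and 5 of 8 did without replicate 3 (22.7% of all genes called). Of 7 retinal ganglion cell markers, *isl2b* and *rbpms2b* fell by 0.56 and 0.55 and *gap43*, a growth cone protein gene, rose by 0.85, and the summed level overlapped at 683 to 914 CPM in fyn and 686 to 765 CPM in WT larvae. That sum includes *gap43* and *elavl4*, which are also on the list of neuron markers used below, so it is not particular to ganglion cells. Against Gal4 larvae at 5 dpf edgeR called none of these 7, or 1 higher and 2 lower without replicate 3. At 3 dpf, in fyn against WT larvae, *rbpms2b* was lower (-0.39) and *gap43* and *elavl4* were higher. In Gal4 against WT larvae at 3 dpf *isl2b* (-0.36) and *gap43* (-0.37) were lower and none was higher. At 3 dpf, where *atoh7* was not called between fyn and WT larvae, 6 of the 8 photoreceptor markers fell (27.5% of all genes called), with sums of 535 to 848 CPM in fyn and 1337 to 2401 CPM in WT larvae. The Gal4 larvae of that age held 686 to 1652 CPM and overlapped both. Against them 4 of the 8 fell in fyn larvae (18.6% of all genes called). Between Gal4 and WT larvae edgeR called none (4.79% of all genes called), with a median of -0.51 and 5 of 8 at an unadjusted p under 0.05. No marker of either list was at 0 in every library of a group. The part of these cell types in the *atoh7* levels was not tested.

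The other early factor, *neurog1* (ENSDARG00000056130, chromosome 14, 26703331 to 26704829, minus strand), specifies sensory neurons of the cranial and spinal ganglia in zebrafish. At 5 dpf the fyn libraries formed a low and a high pair, with 4.16, 3.91, 8.18 and 8.66 CPM. In that group replicates 1 and 2 also lay below replicates 3 and 4 for *atoh7*, *neurod1*, *dla* and *dlb*. They did not for *neurod4*, *dld* or *notch1a*. For *neurog1*, Gal4 larvae held 5.94, 6.71, 16.5 and 8.37 CPM. WT larvae held 4.94, 4.95, 6.71 and 5.53 CPM, so the genotypes overlapped. At 3 dpf it averaged 8.32 ± 0.790 CPM in fyn, 7.03 ± 1.3 CPM in Gal4 and 7.46 ± 0.168 CPM in WT larvae (SD, n = 4 each), and no genotype difference was called at either age. In WT larvae *neurog1* fell with age by 0.43 (SE 0.13; adjusted p = 0.0143 with edgeR), every 5 dpf library being below every 3 dpf library. The call was lost when all 6 groups were fitted together (adjusted p = 0.239 with edgeR). *neurog1* changed with age in Gal4 larvae by 0.41 (SE 0.34, adjusted p = 0.421 with edgeR). Without replicate 3 at 5 dpf that change was -0.01 (SE 0.18, adjusted p = 0.958 with edgeR). The change in fyn larvae was -0.42 (SE 0.25; adjusted p = 0.18 with edgeR), and the changes in fyn and WT larvae differed by -0.01 (SE 0.30; adjusted p = 0.995 with edgeR).

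The differentiation factor *neurod1* (ENSDARG00000019566, chromosome 9, 44291721 to 44295071, minus strand) acts in newborn neurons, in the photoreceptor lineage and in the endocrine pancreas. At 5 dpf the fyn libraries held 131, 125, 160 and 166 CPM. The Gal4 libraries held 179, 166, 269 and 167 CPM, all above the fyn libraries, though the nearest pair both stood at 166 CPM. The WT libraries held 188, 161, 180 and 156 CPM and overlapped those of fyn larvae. The difference of fyn from Gal4 larvae was -0.42 (SE 0.19; adjusted p = 0.257 with edgeR) and -0.23 (SE 0.11; adjusted p = 0.144) without replicate 3, and that from WT larvae was -0.23 (SE 0.10; adjusted p = 0.118 with edgeR). Only the fit of all 6 groups, which kept replicate 3, called *neurod1* against Gal4 larvae (adjusted p = 0.0265). At 3 dpf it held 216, 167, 219 and 232 CPM in fyn, 212, 225, 226 and 197 CPM in Gal4 and 241, 226, 234 and 232 CPM in WT larvae, and the genotypes overlapped.

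With age *neurod1* fell in fyn larvae by 0.52 (SE 0.12; adjusted p = 0.00386 with edgeR) and in WT larvae by 0.44 (SE 0.06; adjusted p = 4.06e-05 with edgeR), and the 5 dpf libraries were below the 3 dpf libraries in both. In Gal4 larvae the change was -0.13 (SE 0.17; adjusted p = 0.624), and without replicate 3 it fell by 0.33 (SE 0.07; adjusted p = 0.00167). The changes in fyn and WT larvae differed by -0.09 (SE 0.14; adjusted p = 0.755 with edgeR).

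*neurod4* (ENSDARG00000003469, chromosome 23, 28343988 to 28347039, minus strand), a bHLH factor of differentiating neurons and of the retina, also fell with age in fyn and WT larvae. It held 16.2, 16.4, 14.9 and 17.1 CPM in fyn larvae at 5 dpf, against 25.3, 19.1, 25.2 and 27.0 CPM in fyn larvae at 3 dpf, with no overlap. In WT larvae it held 16.2, 18.1, 17.7 and 19.1 CPM at 5 dpf and 25.3, 24.6, 16.5 and 24.2 CPM at 3 dpf, where replicate 3 at 3 dpf lay within the range of the older larvae. The fall was 0.58 in fyn larvae (SE 0.11; adjusted p = 0.00128 with edgeR) and 0.34 in WT larvae (SE 0.12; adjusted p = 0.0277 with edgeR), and the call in WT larvae was lost when any of 5 single libraries was left out. In Gal4 larvae the change was -0.10 (adjusted p = 0.683 with edgeR), or -0.14 (adjusted p = 0.304) without replicate 3. With all libraries no genotype difference in *neurod4* was called at either age.

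**Figure D3:**
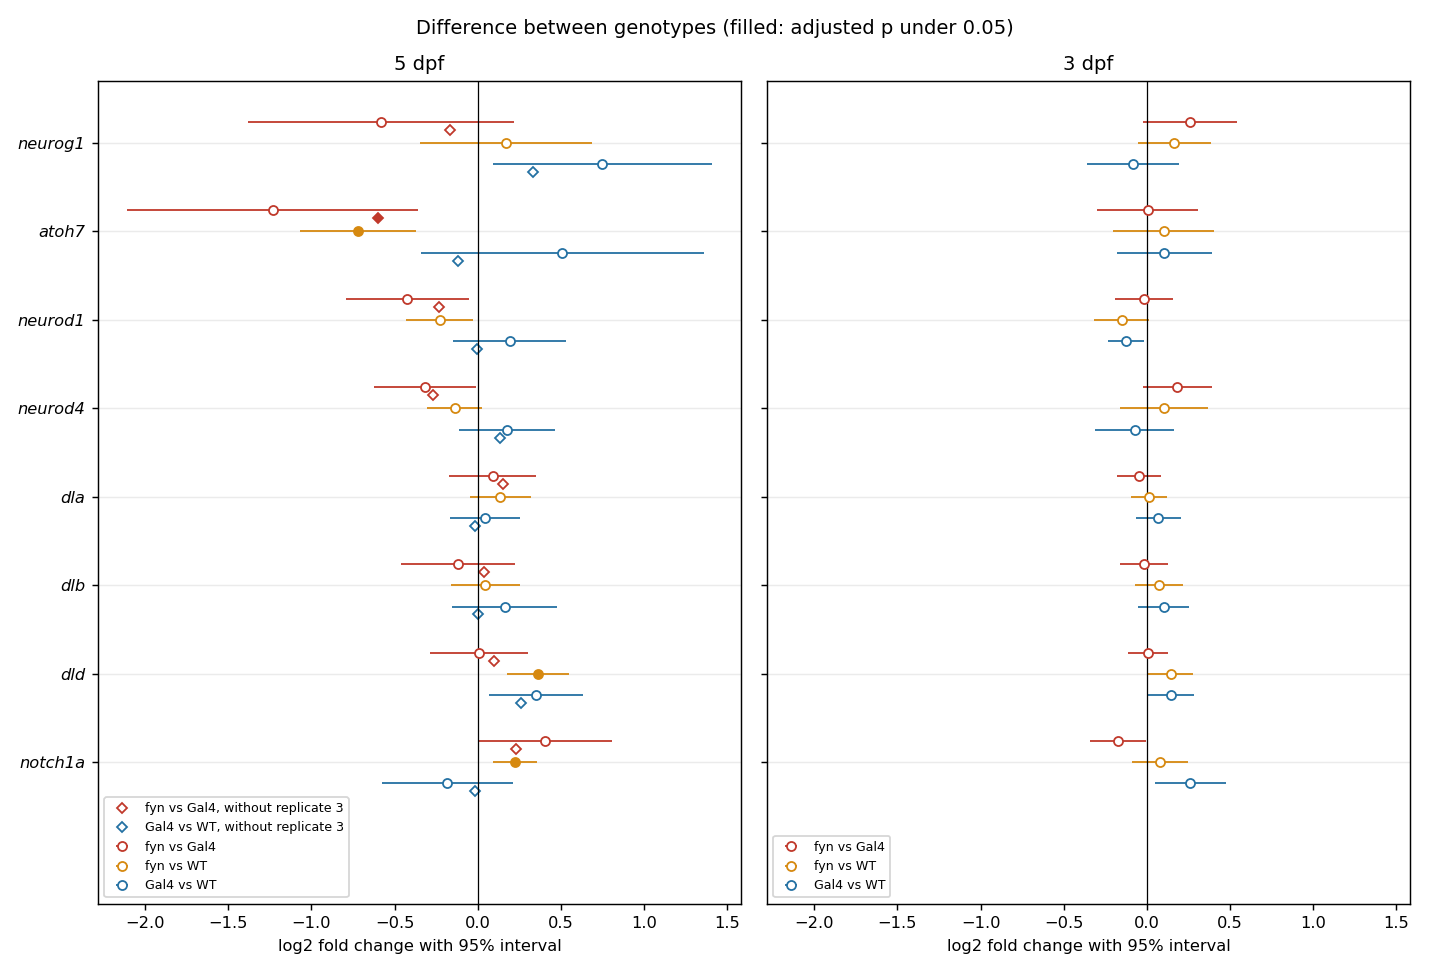
Genotype differences of the 8 genes at 5 dpf (left) and at 3 dpf (right) as log2 fold changes. The comparisons are fyn against Gal4, fyn against WT and Gal4 against WT larvae. Bars are approximate 95% intervals from the SE and a normal distribution. They are narrower than the edgeR test implies, and some do not reach the line of no difference at an unadjusted p above 0.05. Filled symbols have an adjusted p under 0.05, and diamonds leave out replicate 3 of the Gal4 larvae at 5 dpf. *atoh7* at 5 dpf lies at -0.72 against WT larvae, and no gene is filled at 3 dpf.

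Of the Delta ligands, *dld* was called between genotypes. Over both ages, 1 of the 6 comparisons of fyn with WT larvae among *dla*, *dlb* and *dld* was called, that of *dld* at 5 dpf, where 28.8% of all genes were called at 5 dpf and 27.5% at 3 dpf. None of the 6 comparisons of fyn with Gal4 larvae was, by edgeR or DESeq2 or at an unadjusted p under 0.05, where 4.6% of all genes were called at 5 dpf and 18.6% at 3 dpf. *dld* (ENSDARG00000020219, chromosome 13, 6075572 to 6081803, minus strand), a ligand gene that is also needed for somite formation in zebrafish, held 23.8, 28.6, 27.2 and 29.8 CPM in fyn larvae at 5 dpf. The Gal4 libraries held 25.6, 27.4, 32.3 and 23.5 CPM and the WT libraries 23.1, 20.4, 23.0 and 18.9 CPM. The fyn and the Gal4 libraries both lay above the WT libraries and overlapped each other. *dld* rose in fyn against WT larvae by 0.36 (SE 0.10; adjusted p = 0.0176 with edgeR), a call lost without replicate 4 of either group (adjusted p up to 0.0524). The difference of Gal4 from WT larvae was 0.35 (SE 0.14; adjusted p = 0.84 with edgeR), or 0.26 (SE 0.09; adjusted p = 0.294) without replicate 3, and that of fyn from Gal4 larvae was 0.01 (SE 0.15; adjusted p = 0.985), or 0.10 (SE 0.10; adjusted p = 0.516) without replicate 3.

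At 3 dpf *dld* held 27.6, 27.3, 26.7 and 27.8 CPM in fyn larvae and 28.9, 26.5, 27.4 and 28.1 CPM in Gal4 larvae, against 22.5, 25.1, 26.4 and 25.5 CPM in WT larvae. Both transgenic groups lay above the WT libraries at this age too, at 0.14 for fyn (SE 0.07; adjusted p = 0.144 with edgeR) and 0.14 for Gal4 larvae (SE 0.07; adjusted p = 0.244 with edgeR). With age *dld* fell in WT larvae by 0.22 (SE 0.09; adjusted p = 0.0435 with edgeR), a call lost when any of 5 single libraries was left out, with DESeq2 (adjusted p = 0.0675) and in the fit of all 6 groups (adjusted p = 0.0879). In fyn larvae its change with age was 0.00 (SE 0.08, adjusted p = 0.979 with edgeR). *dld* changed in Gal4 larvae by -0.02 (SE 0.13, adjusted p = 0.939 with edgeR), or by -0.10 (SE 0.08, adjusted p = 0.276) without replicate 3. The difference between the changes in fyn and WT larvae was 0.21 (SE 0.12, adjusted p = 0.276 with edgeR).

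*dlb* (ENSDARG00000004232, chromosome 5, 36693859 to 36701760, plus strand), a Delta ligand gene of nascent neurons, fell with age in fyn and WT larvae. It held 36.9, 40.4, 45.2 and 50.5 CPM in fyn larvae at 5 dpf and 49.1, 51.0, 57.9 and 51.9 CPM in fyn larvae at 3 dpf. In WT larvae it held 47.4, 38.8, 43.7 and 38.3 CPM at 5 dpf and 46.4, 52.8, 46.2 and 55.4 CPM at 3 dpf. The ages overlapped in 1 or more libraries in both genotypes. The fall was 0.28 in fyn larvae (SE 0.10; adjusted p = 0.0323 with edgeR) and 0.25 in WT larvae (SE 0.08; adjusted p = 0.0181 with edgeR), and leaving out any of 4 single libraries ended the call in each, as did the fit of all 6 groups (adjusted p = 0.0853 in fyn and 0.113 in WT larvae). In Gal4 larvae the change was -0.20 (SE 0.16; adjusted p = 0.404) with all libraries, and without replicate 3 it fell by 0.36 (SE 0.08; adjusted p = 0.00198).

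*dla* (ENSDARG00000010791, chromosome 1, 54013457 to 54026352, plus strand), a ligand gene of lateral inhibition in the neural plate, was the steadiest member. Its group means lay between 44.5 ± 1.95 CPM in WT larvae at 3 dpf and 51.9 ± 6.78 CPM in fyn larvae at 5 dpf (SD, n = 4 each), and no comparison of it was called. The nearest to a call was the change with age in fyn larvae, at 0.22 (SE 0.09; adjusted p = 0.0572 with edgeR), which was 0.29 (adjusted p = 0.00687) without replicate 1 of the 5 dpf group. The gene AL929114.1 overlaps *dla* on the opposite strand, and it is not stated whether strand was used in counting. It is therefore not known whether reads from the stretch shared by the 2 genes were told apart.

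The receptor gene *notch1a* (ENSDARG00000103554, chromosome 21, 4766244 to 4849056, minus strand), which receives the Delta signal, differed between genotypes at 5 dpf. It held 89.1, 79.0, 86.9 and 82.2 CPM in fyn larvae, against 76.2, 65.1, 38.7 and 73.8 CPM in Gal4 larvae. The WT libraries held 77.1, 73.4, 70.9 and 67.8 CPM. All 4 fyn libraries were above all 8 control libraries, and the lowest Gal4 library was replicate 3. *notch1a* rose in fyn against WT larvae by 0.22 (SE 0.07; adjusted p = 0.0276 with edgeR), a call lost in 5 of the 8 fits with 1 library left out and in the fit of all 6 groups (adjusted p = 0.357). The difference of fyn from Gal4 larvae was 0.41 (SE 0.20; adjusted p = 0.316 with edgeR) and 0.23 (SE 0.08; adjusted p = 0.0657) without replicate 3. Only the fit of all 6 groups, which kept replicate 3, called *notch1a* against Gal4 larvae (adjusted p = 0.0483).

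At 3 dpf the order of these genotypes was another. *notch1a* averaged 79.6 ± 3.08 CPM in fyn, 91.4 ± 12.7 CPM in Gal4 and 75.8 ± 10.9 CPM in WT larvae (SD, n = 4 each), with overlapping libraries and no call. Its change with age was 0.08 in fyn larvae (SE 0.06; adjusted p = 0.283 with edgeR) and -0.06 in WT larvae (SE 0.09; adjusted p = 0.556 with edgeR). In Gal4 larvae it was -0.51 (SE 0.22; adjusted p = 0.118), and without replicate 3 it fell by 0.34 (SE 0.10; adjusted p = 0.0125). The changes with age in fyn and Gal4 larvae differed by 0.60 (SE 0.22; adjusted p = 0.153 with edgeR) with all libraries and by 0.43 (SE 0.12; adjusted p = 0.0266) without replicate 3.

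Counted over the 8 members, tests of 2 groups with all libraries called fyn larvae different from WT larvae alone, and at 5 dpf alone. At 3 dpf no member was called against Gal4 or WT larvae by edgeR or DESeq2, and 0 of 8 had an unadjusted p under 0.05 in either comparison, where 18.6% of all genes were called between fyn and Gal4 larvae and 27.5% between fyn and WT larvae. Against Gal4 larvae of that age *notch1a* was called without replicate 3 of the Gal4 larvae (-0.25; adjusted p = 0.0404 with edgeR) and *neurod4* without replicate 2 of the fyn larvae (0.28; adjusted p = 0.0389 with edgeR). Libraries did not overlap for 0 of 8 members between fyn and Gal4 larvae at 3 dpf (21.4% of all genes) and for 1 of 8, *dld*, between fyn and WT larvae (27.2% of all genes). At 5 dpf, between fyn and WT larvae 3 members were called, *dld* and *notch1a* higher and *atoh7* lower, where 28.8% of all genes were called, and the same 3 members did not overlap, against 29.9% of all genes. Between fyn and Gal4 larvae no member was called by edgeR or by DESeq2, and 1 had an unadjusted p under 0.05, in a comparison with 4.6% of all genes called. Without replicate 3 it was 1 member, *atoh7*, with 22.7% of all genes called. Libraries of fyn and Gal4 larvae did not overlap for *atoh7*, *neurod1* and *notch1a*, 3 of 8 members against 20.5% of all genes, or the same 3 against 34.0% of all genes without replicate 3. The median log2 difference of the 8 members at 5 dpf was 0.09 between fyn and WT larvae and -0.22 between fyn and Gal4 larvae, or -0.06 without replicate 3, where the medians of all genes were -0.00 and -0.01.

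The driver line alone was compared with WT larvae. No member was called at 3 dpf by edgeR or DESeq2, where 2 of 8 had an unadjusted p under 0.05 and 4.79% of all genes were called. Those were *neurod1*, at -0.13 (SE 0.06; adjusted p = 0.211 with edgeR), and *notch1a*, at 0.26 (SE 0.11; adjusted p = 0.178 with edgeR). At 5 dpf none was called by either tool with all libraries, *dld* alone having an unadjusted p under 0.05, where 0.0508% of all genes were called. Without replicate 3 edgeR called none either, *dld* again being the 1 member with an unadjusted p under 0.05, and 1.95% of all genes were called. Non-overlapping libraries were found for *dld* at both ages, 1 of 8 members, against 12.0% of all genes at 3 dpf and 5.82% at 5 dpf, or 10.7% at 5 dpf without replicate 3.

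More members were called between ages than between genotypes. In fyn larvae 4 of 8 were called between 5 and 3 dpf, *atoh7*, *neurod1*, *neurod4* and *dlb*, all lower, in a comparison with 52.3% of all genes called and 25.3% called lower. In WT larvae 5 of 8 were called, *neurog1*, *neurod1*, *neurod4*, *dlb* and *dld*, all lower, with 58.0% of all genes called and 28.7% called lower. Both total shares were near those of all genes. The ages did not overlap for 3 members in fyn larvae (46.8% of all genes) and for 2 in WT larvae (50.8%). In Gal4 larvae no member was called by edgeR or DESeq2 with all libraries, 1 had an unadjusted p under 0.05 and 25.7% of all genes were called. Without replicate 3, 4 of 8 were called, *atoh7*, *neurod1*, *dlb* and *notch1a*, all lower, where 59.0% of all genes were called. The ages did not overlap for 1 member in Gal4 larvae, *notch1a*, against 37.5% of all genes, and without replicate 3 for 4 members, *atoh7*, *neurod1*, *dlb* and *notch1a*, against 57.9% of all genes. *neurod1* and *dlb* fell in fyn larvae, in Gal4 larvae without replicate 3 and in WT larvae.

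**Figure D4:**
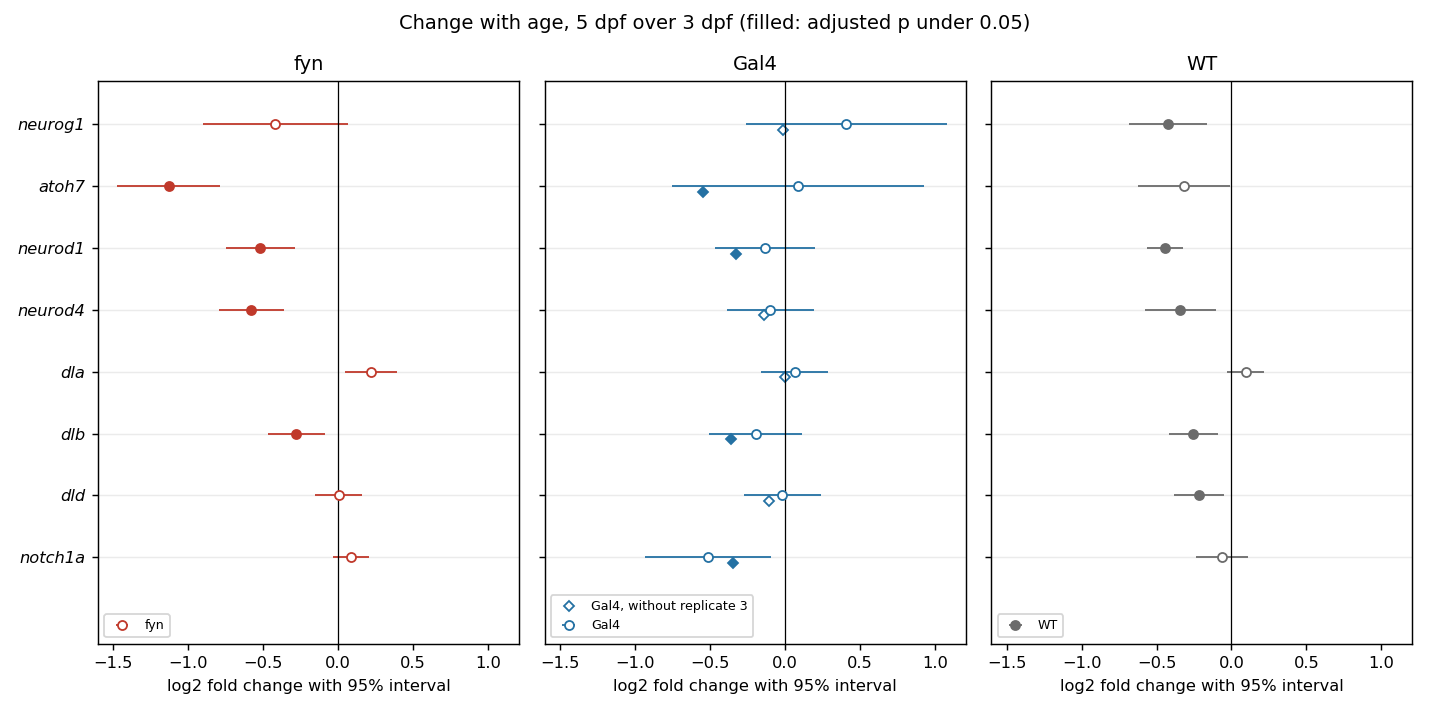
Change of the 8 genes between 3 and 5 dpf in fyn, Gal4 and WT larvae as log2 fold changes of 5 dpf over 3 dpf. Bars are approximate 95% intervals from the SE and a normal distribution. They are narrower than the edgeR test implies, and *atoh7* in WT larvae does not reach the line of no change at an unadjusted p above 0.05. Filled symbols have an adjusted p under 0.05, and diamonds leave out replicate 3 of the Gal4 larvae at 5 dpf. *neurod1* is at -0.52 in fyn and -0.44 in WT larvae, and *atoh7* is at -1.13 in fyn and -0.31 in WT larvae.

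The test of the difference between changes with age called 1 of 8 members between fyn and WT larvae, *atoh7* (-0.83), where 11.7% of all genes were called and 5.47% called with a negative difference. Between fyn and Gal4 larvae it called none by edgeR or DESeq2, 3 of 8 having an unadjusted p under 0.05 and 4.15% of all genes being called. Without replicate 3 it called 1, *notch1a*, with 15.9% of all genes called.

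The library that stood apart changed the members unequally. With TMM scaling, replicate 3 of the Gal4 larvae at 5 dpf lay above the other 3 libraries of its group for 6 of 8 members, by 3.35 times their mean for *atoh7* and 2.35 times for *neurog1*, within them for *neurod4* and below them for *notch1a*, at 0.54 times their mean. Scaled by library totals alone, only *neurog1* (10.1 CPM, against 5.97 to 8.45 CPM in the others) and *atoh7* (7.15 CPM, against 3.24 to 3.71 CPM) remained above, *neurod1* lay within, and the other 5 lay below. Other lists differed there too. The 6 hair cell and lateral line markers summed to 1137 CPM in this library, against 471 to 494 CPM in the other 3, and the other 3 Notch receptor genes summed to 135 CPM, against 324 to 396 CPM, and both stood on the same side with library totals. The 20 neural progenitor markers summed to 3048 CPM, against 1739 to 1863 CPM, with TMM scaling and lay within the other libraries with library totals, at 1864 CPM against 1731 to 1872 CPM. The neuron markers lay above the other libraries with TMM scaling (5551 CPM against 4210 to 4894 CPM). They lay below them with library totals (3396 CPM against 4229 to 4940 CPM). The cause of these values was not tested.

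**Figure D5:**
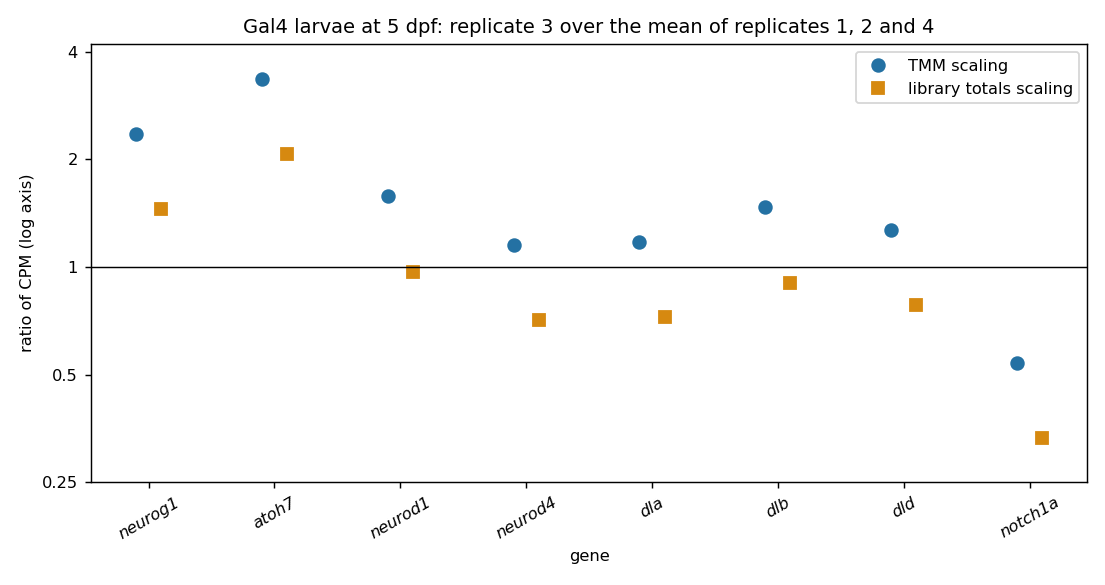
Level of each of the 8 genes in replicate 3 of the Gal4 larvae at 5 dpf over the mean of the other 3 libraries of that group (ratio of CPM, log axis), with TMM scaling and with scaling by library totals alone. *atoh7* lies at 3.35 and 2.07 and *notch1a* at 0.54 and 0.332 on these scales, and *notch1a* is the gene below 1 on both.

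The other genes of the pathway were taken from lists of other neurogenic genes (bHLH factors, their cofactors and *insm1a* and *insm1b*), ligands, receptors, Notch targets and Notch machinery. In the comparisons of fyn with WT larvae that follow, 27.5% of all genes were called at 3 dpf and 28.8% at 5 dpf. Between fyn and WT larvae at 3 dpf, 9 of the 19 other neurogenic genes were called (47.4%), 3 higher and 6 lower, with a median of -0.16. Among them *neurod2*, a neuronal differentiation factor, fell by 0.38 and *insm1a*, a zinc finger gene of newborn neurons and endocrine cells, rose by 0.40. The Id gene *id4* fell by 0.40, and other Id genes were also among the 6 lower. Between Gal4 and WT larvae of that age 3 of the 19 were called, all lower (15.8%, against 4.79% of all genes), and DESeq2 called 5 lower. In fyn against WT larvae at 5 dpf 4 of 19 were called (21.1%, below the share of all genes). There *bhlhe22*, a bHLH gene of differentiating neurons, was lower (-0.48). The Id genes *id1* (0.41) and *id3* (0.37), which bind bHLH cofactors and block them, were higher at that age. Of 8 other ligand genes, *jag1a* rose by 0.59 in fyn against WT larvae at 5 dpf, and at 3 dpf *jag1b* (0.21) was higher and *dner* (-0.41) and *dlk2* (-0.51) were lower. The Gal4 larvae at 3 dpf were called in the same direction against WT larvae for *jag1b* (0.34; adjusted p = 0.0319 with edgeR) and *dner* (-0.41; adjusted p = 0.0316 with edgeR), where 4.79% of all genes were called. *dner* averaged 13.1 ± 1.24 CPM in fyn, 13.3 ± 1.53 CPM in Gal4 and 17.6 ± 0.588 CPM in WT larvae of that age (SD, n = 4 each).

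Among the other receptors *notch3* rose in fyn against WT larvae at 3 dpf by 0.33 (SE 0.08; adjusted p = 0.00986 with edgeR) and at 5 dpf by 0.22 (SE 0.06; adjusted p = 0.0219 with edgeR), and *notch1b* and *notch2* were not called. At 3 dpf *notch3* averaged 175 ± 6.72 CPM in fyn, 176 ± 22.6 CPM in Gal4 and 140 ± 19.6 CPM in WT larvae (SD, n = 4 each). Between Gal4 and WT larvae at 3 dpf edgeR called none of the 3 other receptors, all 3 having an unadjusted p under 0.05, and DESeq2 called 2 of them higher. Of 17 Notch target genes of the her, hey and nrarp families, 5 rose and 1 fell at 3 dpf (35.3% called), with a median of 0.20. At 5 dpf 3 rose and 1 fell (23.5% called, below the share of all genes), with a median of 0.19. The target *nrarpa*, which feeds back on Notch signalling, was higher in fyn larvae at 3 dpf (0.63) and lower at 5 dpf (-0.50), and its change with age differed between fyn and WT larvae by -1.15 (SE 0.18; adjusted p = 0.000591 with edgeR). Of 22 genes of the Notch machinery, 3 rose and 2 fell at 3 dpf, and 2 rose and 3 fell at 5 dpf, 22.7% at each age and below the shares of all genes. Reads of near-identical her4 and her15 copies may have been split between rows, so the counts of the Notch target list are uncertain. Between fyn and Gal4 larvae the median of the target list was -0.005 at 3 dpf and 0.009 at 5 dpf. Without replicate 3 of the Gal4 larvae at 5 dpf the latter was 0.119.

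Between fyn and Gal4 larvae at 3 dpf, where 18.6% of all genes were called, the same lists held 1 call of the 19 neurogenic genes, *insm1a* (0.36), 1 of 8 ligands, *dlk2* (-0.50), none of 3 receptors (1 at an unadjusted p under 0.05 and 1 by DESeq2), 3 higher and 1 lower of 17 targets and 2 higher and 1 lower of 22 machinery genes. Of 13 neuron markers 7 rose and none fell, with *gap43* at 2.03 and the tubulin gene *tubb5* at 1.20, and their summed level was 3901 to 4639 CPM in fyn and 2627 to 2999 CPM in Gal4 larvae. Against WT larvae of that age, which held 3243 to 3481 CPM, 5 of the 13 rose and 4 fell in fyn larvae (69.2% called, against 27.5% of all genes). In Gal4 larvae 5 of the 13 fell and none rose against WT larvae (38.5% called, against 4.79% of all genes). Against Gal4 larvae, the intermediate filament gene *nes*, a progenitor marker, rose by 1.76 in fyn larvae, while *sox2* (0.26) was the other 1 of the 20 progenitor markers called. At this age the 8 members had a median difference of -0.01, and that of all genes was 0.00. At 5 dpf none of the 69 genes tested in these 5 pathway lists was called between fyn and Gal4 larvae, where 4.6% of all genes were called. Of the 69, 9 had an unadjusted p under 0.05 (3894 of all 19746 genes tested). DESeq2 called 5 of them (2456 of all 25981 genes). Without replicate 3, 12 of the 69 were called by edgeR, where 22.7% of all genes were called.

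Lists were also compared between ages, where 52.3% of all genes were called in fyn larvae (25.3% lower) and 58.0% in WT larvae (28.7% lower). In WT larvae 14 of 20 progenitor markers were lower at 5 dpf and none higher, with a median of -0.35 and sums of 1735 to 1890 CPM at 5 dpf and 2424 to 2486 CPM at 3 dpf, and in fyn larvae 10 of 19 were lower, 2 higher and 7 not called, with a median of -0.31. In Gal4 larvae 5 of 20 were lower and 1 higher (25.7% of all genes called), and without replicate 3 it was 11 lower and 3 higher (59.0% of all genes called). Of 13 neuron markers 11 rose and 2 fell in WT larvae, 5 rose and 2 fell in fyn larvae, and 8 rose and none fell in Gal4 larvae, or 11 and none without replicate 3. Of the 17 Notch target genes 8 fell and 2 rose in WT larvae, 4 fell and 2 rose in fyn larvae, with *her12* at -0.98, and 3 fell and 1 rose in Gal4 larvae, or 7 and 2 without replicate 3. The markers of the endocrine pancreas, where *neurod1* also acts, summed to 126 to 174 CPM at 5 dpf and 199 to 236 CPM at 3 dpf in fyn larvae, and to 158 to 169 CPM at 5 dpf and 196 to 203 CPM at 3 dpf in WT larvae. That list includes *pax6b*, also on the progenitor list, and *insm1a*, also on the list of neurogenic genes. Its sum is therefore not particular to the pancreas. By calls its genes were divided in WT larvae, where 2 of 7 rose (*gcgb* and *sst2*) and 2 fell (*pax6b* and *insm1a*), with a median of 0.11. In fyn larvae 3 of 6 fell, *pax6b* and *insm1a* among them, and none rose. In Gal4 larvae 1 of 8 fell and none rose, and without replicate 3, 2 of 7 rose and 1 fell. The share of these cell types in the changes of the members was not tested.

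The gene whose log2 CPM followed each member most closely over the 24 libraries was found among 17819 expressed genes. These points share the library scaling, the 6 groups and the library that stood apart, so r is given as a description, with its value over the 23 libraries without it. *atoh7* was followed best by *tp53inp2* (r = 0.9595, or 0.9373 over 23 libraries) and *neurod1* by *anp32e* (0.9365, or 0.9268). *notch1a* was followed best by *celsr1b*, an adhesion G protein-coupled receptor gene of planar cell polarity (0.9362, or 0.8493), and *neurog1* by *olig2*, a bHLH gene of motor neuron and oligodendrocyte progenitors (0.883, or 0.8281). *dla* was followed best by *lfng*, the gene of the Fringe enzyme that modifies Notch receptors (0.7818, or 0.7501). The next gene, si:ch1073-357b18.4, was close behind at 0.7801 and passed *lfng* over 23 libraries, at 0.7701. For *neurod4*, CU659670.1 (0.8199) likewise passed the best match over 23 libraries, at 0.8423. The best matches of *neurod4* (*bcl7a*, 0.8314), *dlb* (si:ch211-288g17.3, 0.903) and *dld* (*fam168b*, 0.8659) lay between 0.8315 and 0.8957 over 23 libraries.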

How the data were processed

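Whole larvae were used, with 10 pooled larvae per library. Per the labels and the submitters' processing notes, the authors' reads were aligned to GRCz11 with HISAT2 (version 2.0.5), genes were assembled with StringTie (version 1.3.3b), and featureCounts (version 1.5.0-p3) gave the deposited raw counts per gene. The sources used here do not state a strand setting for the counting. The deposited tables also hold normalized values and the authors' own fold changes and p-values, none of which were used. The raw counts came from 9 tables, which agreed in all 1205864 entries compared (0 differed), and 13752 entries of genes not listed for a library were set to 0. A further 27 tables, which hold parts of these, and 144 columns of per-sample values were not used.

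Library totals ranged from 11386498 to 30549128 counts, and that depth sets the counting error. Counts were tested with edgeR 4.0.16 (R 4.3.3): filterByExpr, TMM factors and the quasi-likelihood test in the 2 groups compared, or the 4 groups of a difference between changes with age, with Benjamini-Hochberg adjustment over all genes kept and a threshold of 0.05. Levels are CPM with TMM factors over all 24 libraries. DESeq2 1.42.0, RLE factors, library totals alone, no filter, all 6 groups in one fit, the replicate number as a block and leaving out each library were alternatives. The tests were checked on simulated counts. The p-values measure the spread between pools of larvae.

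A further 2 genes of the set are not reported here. The members and gene lists were chosen with earlier results of these data known, and the counts of list genes and the members' overlaps and medians without replicate 3 of the Gal4 larvae at 5 dpf were added after seeing the data. Of 143 symbols on the lists, 131 matched a row. Genes named from a list are up to 2 per direction and comparison with the largest fold change among those called. Likeness to a member is Pearson's r of log2 CPM with a pseudocount of 0.5 CPM among genes whose log2 CPM averaged 1 or more.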

Additional observations from a re-analysis of the deposited data

Results flagged for a closer look

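In 48 groups of 4 libraries, the highest or lowest library lay apart from the rest by Dixon's criterion in 5, where chance marks about 1 in 20. In the Gal4 larvae at 5 dpf it was replicate 3 for *atoh7* (11.7 CPM), *neurod1* (269 CPM) and *dlb* (61.7 CPM), each the highest of its group. In the WT larvae at 3 dpf *neurod4* was lowest in replicate 3 (16.5 CPM). In the fyn larvae at 3 dpf *notch1a* was lowest in replicate 1 (75.0 CPM).

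The change with age differed between fyn and WT larvae by the test of that difference in 1 member, *atoh7*, at -0.83 on the log2 scale.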

How the results depend on the processing

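Over 88 member results and 1360 alternatives, 1307 stayed on the same side of the threshold (1227 in the same direction and 80 uncalled values that changed sign), 35 lost a call, 17 gained one and 1 reversed. The reversal was *atoh7* between 5 and 3 dpf in Gal4 larvae, at -0.54 without replicate 3 at 5 dpf (0.09 with all libraries, and -0.54 to 0.28 with 1 left out). RLE factors and no filter changed no member's call.

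With all 6 groups in one fit, members called numbered 3 for fyn against Gal4 larvae at 5 dpf (otherwise 0: *atoh7*, *neurod1* and *notch1a*), 1 for fyn against WT larvae at 5 dpf (otherwise 3), 1 between ages in Gal4 larvae (otherwise 0) and 2 in WT larvae (otherwise 5), and 0 for the difference between changes with age in fyn and WT larvae (otherwise 1). That fit also ended the call of *dlb* between ages in fyn larvae (adjusted p = 0.0853). Library totals alone called 2 between ages in Gal4 larvae and 7 in WT larvae, where *atoh7* and *notch1a* were added. Leaving out 1 library gave 0 to 1 members for fyn against Gal4 larvae at 3 dpf and 0 to 1 at 5 dpf, 0 and 1 to 3 for fyn against WT larvae, 0 at both ages for Gal4 against WT larvae, 3 to 4, 0 to 4 and 2 to 4 between ages in fyn, Gal4 and WT larvae, and 0 to 1 each for the differences of fyn from Gal4 and from WT larvae in change with age. The cause was not tested.

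Over all genes, the fit of all 6 groups called 1317 and 5025 genes for fyn against Gal4 larvae at 3 and 5 dpf (otherwise 3572 and 909), 1897 and 3449 for fyn against WT larvae (otherwise 5325 and 5700), 0 and 92 for Gal4 against WT larvae (otherwise 923 and 10), 9429 and 7560 between ages in Gal4 and WT larvae (otherwise 5029 and 11352), and 1826 and 874 for the differences in change with age of fyn from Gal4 and WT larvae (otherwise 844 and 2380). DESeq2 called 2456 for fyn against Gal4 larvae at 5 dpf, 1461 and 134 for Gal4 against WT larvae at 3 and 5 dpf, and 1758 for the difference of fyn from Gal4 larvae in change with age. Library totals called 0 for Gal4 against WT larvae at 5 dpf. They shifted the median of all genes by 0.143 for fyn against Gal4 larvae at 5 dpf, by -0.113 for Gal4 against WT larvae at 5 dpf, by -0.104, -0.206 and -0.150 between ages in fyn, Gal4 and WT larvae, and by 0.101 for the difference of fyn from Gal4 larvae in change with age. The share of calls that were higher moved to 16.8% for Gal4 against WT larvae at 3 dpf (otherwise 38.0%), 41.1%, 42.7% and 35.8% between ages in fyn, Gal4 and WT larvae (otherwise 51.6%, 59.7% and 50.5%) and 65.8% for the difference of fyn from WT larvae (otherwise 53.2%).

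The replicate numbers did not pair the libraries: deviations of same-numbered libraries correlated at -0.201 to 0.165, no comparison had every pair over 0.1, and no comparison had every library matching its own number best. With the replicate number as a block, *dla* between ages in fyn larvae was called at 0.21, *dld* between ages in WT larvae was not called at -0.22, no other member's call changed, and 178, 393 and 0 genes were called for fyn against Gal4 larvae at 5 dpf and for Gal4 against WT larvae at 3 and 5 dpf. Depth limited *atoh7* most, with 26 to 38 reads in fyn libraries at 5 dpf.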
